A study of Mus musculus with 12 samples.

Results

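The amino acid solute carriers are membrane proteins that move amino acids and a few related small molecules across the plasma membrane or out of lysosomes. Here they are the genes whose symbols begin with Slc1a, Slc3a, Slc6a, Slc7a, Slc36a, Slc38a or Slc43a, and 63 of the 18193 genes measured met that rule. They comprised 7 Slc1a, 2 Slc3a, 21 Slc6a, 16 Slc7a, 5 Slc36a, 9 Slc38a and 3 Slc43a genes. The symbols Slc36a1os, Slc6a19os and Slc7a6os name transcripts from the opposite strand of a carrier gene and not carriers, but the rule took them in. RefSeq lists 64 protein-coding genes with such symbols, and 3 of them had no probe set of their own and were not analysed here. In 35 of the 63 at least 1 group mean reached the level of the median gene (7.68), and in 28 none did.

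Yolk sacs were compared between wild type mice and mice with ectopic Norrin, a secreted ligand of the receptor Frizzled4. There were 3 arrays for each of 4 groups: wild type at embryonic day 8.5 (E8.5), Norrin at E8.5, wild type at E10.5 and Norrin at E10.5. The Norrin mice carried a conditional over-expression allele (Z/Norrin), and all groups shared a mixed C57Bl6/129 background and mixed sex. Each array held RNA of 3 to 5 pooled yolk sacs, so a replicate is a pool and embryos within a pool cannot be told apart. The Cre driver was not given in the sources used here. Values are log2 intensities, on which a step of 1 is a 2-fold difference. The median of an array lay between 6.59 and 6.73 at E8.5 and between 6.97 and 7.01 at E10.5. The gene that encodes Norrin, Ndp, read 4.45 to 4.68 over the 12 arrays, and no source says if its probes cover the transgene, so it checks no label. Transthyretin (Ttr), an abundant product of the visceral endoderm that lines the yolk sac, read 14.14 to 14.51 in the 12 pools. Afp, another gene of that endoderm, read 14.26 to 14.64 in wild type and 12.99 to 14.14 in Norrin at E8.5. At E10.5 it read 14.64 to 14.76 in wild type and 14.49 to 14.78 in Norrin.

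The visceral yolk sac feeds the early rodent embryo: its endoderm takes up and digests maternal protein and passes amino acids on to the embryonic circulation. Carriers divide this work by substrate and by coupling. Slc1a carriers take up acidic amino acids or exchange neutral ones, Slc6a carriers use sodium and chloride, Slc36a carriers protons and Slc38a carriers sodium, Slc43a carriers let neutral amino acids pass down their gradient, and many Slc7a light chains need an Slc3a heavy chain to reach the membrane.

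At E10.5, 10 of the 63 genes differed between Norrin and wild type yolk sacs (limma, adjusted p under 0.05), which is 15.9%, against 4.07% of all genes. Those that fell were Slc6a13, Slc38a5, Slc36a2, Slc43a2, Slc7a2, Slc6a9, Slc38a7 and Slc6a19 (8 lower, against 2.22% of all genes in that direction). Slc6a15 and Slc6a20b rose (2 higher, against 1.85%). Of these, 4 fell at least 2-fold, against 1.07% of all genes, and 2 rose at least 2-fold, against 0.759%. Of the 284 other genes with an Slc symbol, 21 passed (7.39%). The median effect over the 63 was -0.0030, against -0.0042 over all genes, with 31 above 0 and 32 below. The 35 that reached the level of the median gene had a median of -0.25 (quartiles -0.62 and 0.28), against 0.016 over all 10059 such genes. The 28 dimmer ones had 0.011. Slc6a13, Slc36a2 and Slc7a2 reached that level only in wild type at E10.5, so they entered the 35 through the group where they were high. The median of the 35 is therefore no measure of a general fall among brighter carriers. The 3 Norrin pools lay wholly apart from the 3 wild type pools in 26 of the 63, 16 lower and 10 higher, against 22.9% of all genes.

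**Figure D1:**
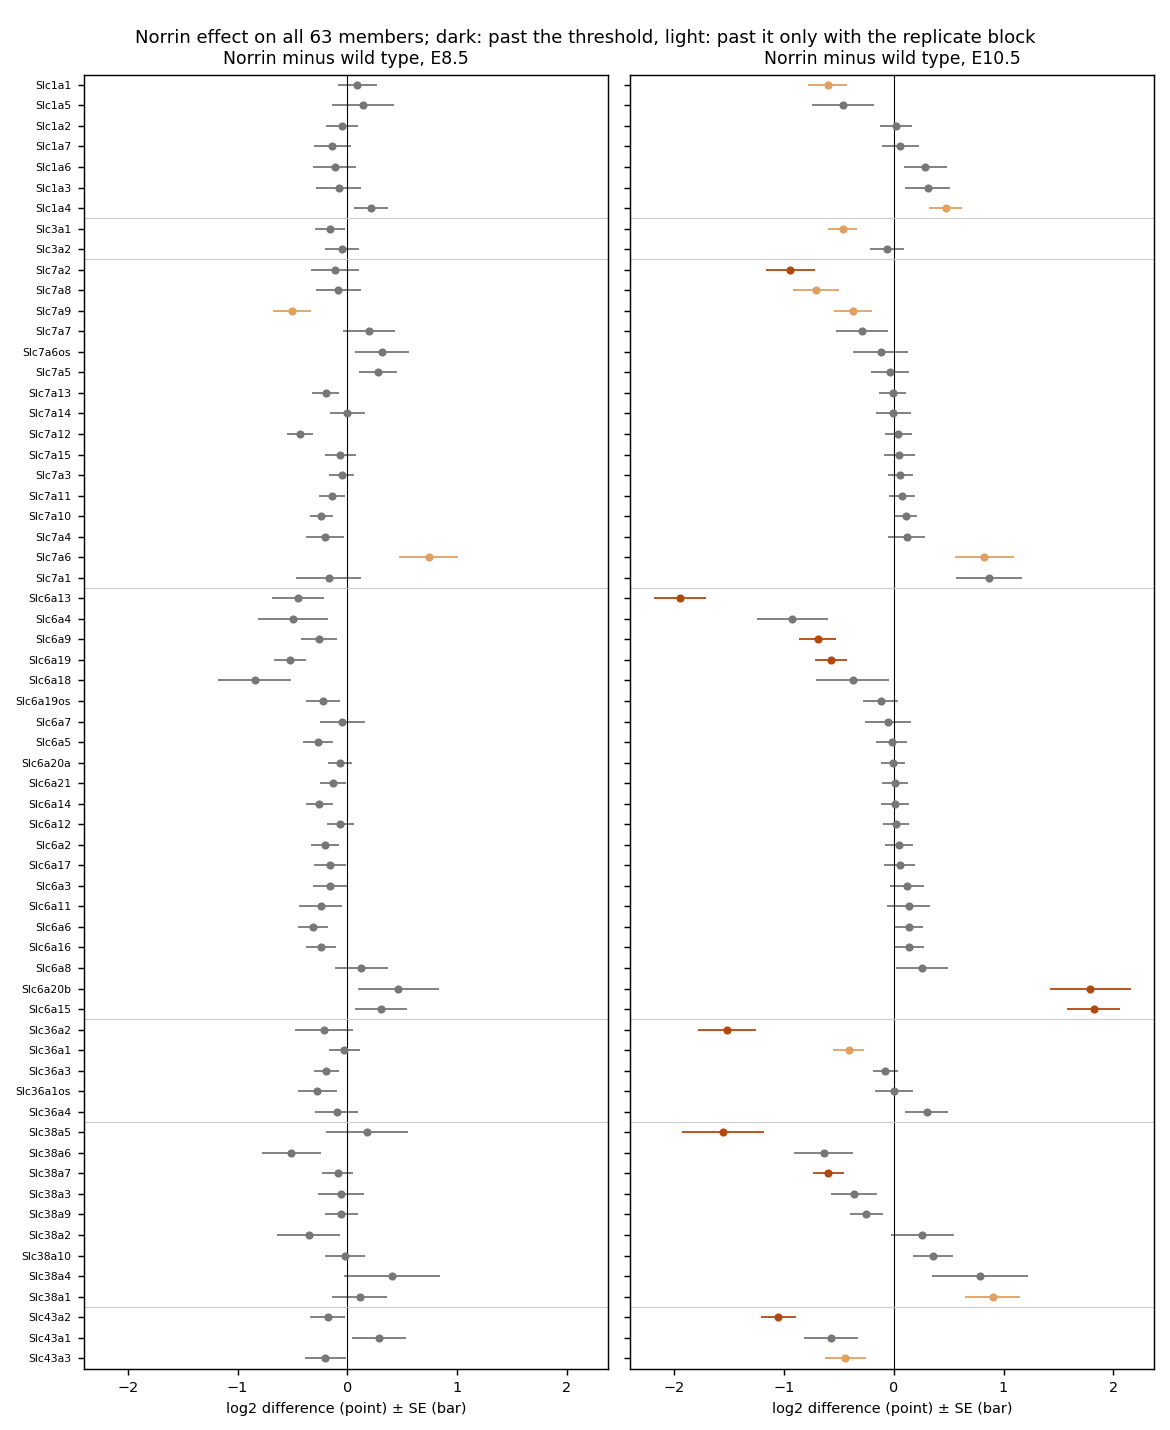
Norrin effect on each of the 63 genes at E8.5 (left) and E10.5 (right). The horizontal axis is the log2 difference of Norrin minus wild type, points are fitted effects and bars are ± 1 SE, dark points passed the threshold and light points passed it only in the fit blocked on replicate number. At E10.5 the 10 dark points run from -1.95 (Slc6a13) to 1.82 (Slc6a15), and at E8.5 there is none.

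The largest fall was in Slc6a13, which encodes GAT2, a carrier of GABA and taurine (chromosome 6, 121300288 to 121337721, build GRCm38.p6). Its level was 9.17, 9.46 and 8.73 in the wild type pools at E10.5 and 7.20, 7.25 and 7.08 in the Norrin pools. It was 3.85-fold lower (log2 -1.95, SE 0.24, adjusted p = 0.00111). Even the lowest wild type pool lay above every Norrin pool by more than the spread within either group. At E8.5 the pools ran from 6.58 to 7.34 in wild type and from 6.19 to 6.78 in Norrin, and overlapped.

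Slc36a2 and Slc43a2 were the other carriers whose fall passed in every fit that left out 1 or 2 arrays and under every alternative setting. Slc36a2 encodes PAT2, which moves glycine and proline together with protons (chromosome 11, 55158468 to 55185099). It stood at 7.81, 8.60 and 7.43 in wild type and at 6.52, 6.54 and 6.22 in Norrin, 2.86-fold lower (log2 -1.52, SE 0.26, adjusted p = 0.00685). Slc43a2 encodes LAT4, through which branched-chain amino acids, phenylalanine and methionine leave cells (chromosome 11, 75529915 to 75577575). It stood at 10.76, 10.56 and 10.31 in wild type and at 9.29, 9.58 and 9.61 in Norrin, 2.07-fold lower (log2 -1.05, SE 0.16, adjusted p = 0.00343). Neither gene's groups overlapped, and the other probe sets of Slc43a2 gave -0.87 and -0.94. At E8.5 both had overlapping groups, with effects of -0.21 for Slc36a2 and -0.18 for Slc43a2.

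Of the 9 Slc38a genes, a glutamine carrier of the plasma membrane and one of lysosomes fell. Slc38a5, the plasma membrane carrier SNAT5 for glutamine, asparagine, histidine and glycine (chromosome X, 8271381 to 8280179), read 7.36, 7.73 and 8.94 in wild type and 6.50, 6.45 and 6.41 in Norrin. It was 2.94-fold lower (log2 -1.55, SE 0.37, adjusted p = 0.037). The wild type pools were spread over more than 1 unit while the Norrin pools were almost level. Slc38a7, the carrier SNAT7 that exports glutamine from lysosomes (chromosome 8, 95835920 to 95853577), read 9.995, 9.70 and 9.70 in wild type and 9.35, 9.29 and 8.96 in Norrin, 1.51-fold lower (adjusted p = 0.0354). Every Norrin pool was below every wild type pool in both genes.

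The remaining falls were in a cationic, a glycine and a brush-border carrier. Slc7a2 encodes CAT2, a carrier of arginine, lysine and ornithine (chromosome 8, 40862341 to 40922070), and read 7.59, 8.45 and 7.62 in wild type and 6.75, 7.31 and 6.78 in Norrin (log2 -0.94, SE 0.22, adjusted p = 0.0323). Its 3 other probe sets gave -0.38, -0.29 and -0.01, so the size of its fall depends on the probe set. Slc6a9 encodes the glycine carrier GlyT1, which also supplies glycine for haem synthesis in red cells (chromosome 4, 117835258 to 117869305). It read 8.82, 9.24 and 9.54 in wild type and 8.45, 8.59 and 8.47 in Norrin (log2 -0.69, SE 0.16, adjusted p = 0.0353), with -0.42 by its other probe set. The groups of both genes were apart, but the gap was small beside the spread of the wild type pools. Slc6a19 encodes B0AT1, which takes up neutral amino acids at the brush border of gut and kidney (chromosome 13, 73679745 to 73700780). It read 7.39, 7.24 and 7.12 in wild type and 6.54, 6.78 and 6.72 in Norrin (log2 -0.57, SE 0.14, adjusted p = 0.0465), below the median gene level throughout, and its other probe set gave -0.50. Lower effects that did not pass included those of Slc38a6 (-0.64), Slc38a3, a system N glutamine carrier (-0.36), and Slc6a4, the serotonin carrier (-0.92).

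Both genes that rose belong to the Slc6a family. Slc6a15 encodes B0AT2, which takes up branched-chain amino acids and proline (chromosome 10, 103367808 to 103419379). It read 4.71, 4.54 and 4.59 in wild type and 6.96, 5.71 and 6.63 in Norrin, a log2 rise of 1.82 (SE 0.24, adjusted p = 0.00166). Its wild type values at E10.5 lay in or just above the range of Ndp (4.45 to 4.68). No value here shows them above background, and so no fold is given. Slc6a20b is a mouse relative of the human imino acid carrier SLC6A20 (chromosome 9, 123593823 to 123632538). It read 6.92, 6.30 and 6.69 in wild type and 9.10, 7.36 and 8.82 in Norrin, 3.46-fold higher (log2 1.79, SE 0.37, adjusted p = 0.0167), with 2.05 by its other probe set. In both genes Norrin replicate 2 was the lowest of the Norrin pools, yet above all wild type pools. Slc6a15 lay under the median gene level in every group. The close relative Slc6a20a stood at 3.90 to 4.06 in wild type and 3.90 to 4.02 in Norrin, and whether the Slc6a20b probes also bind its transcript was not tested.

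**Figure D2:**
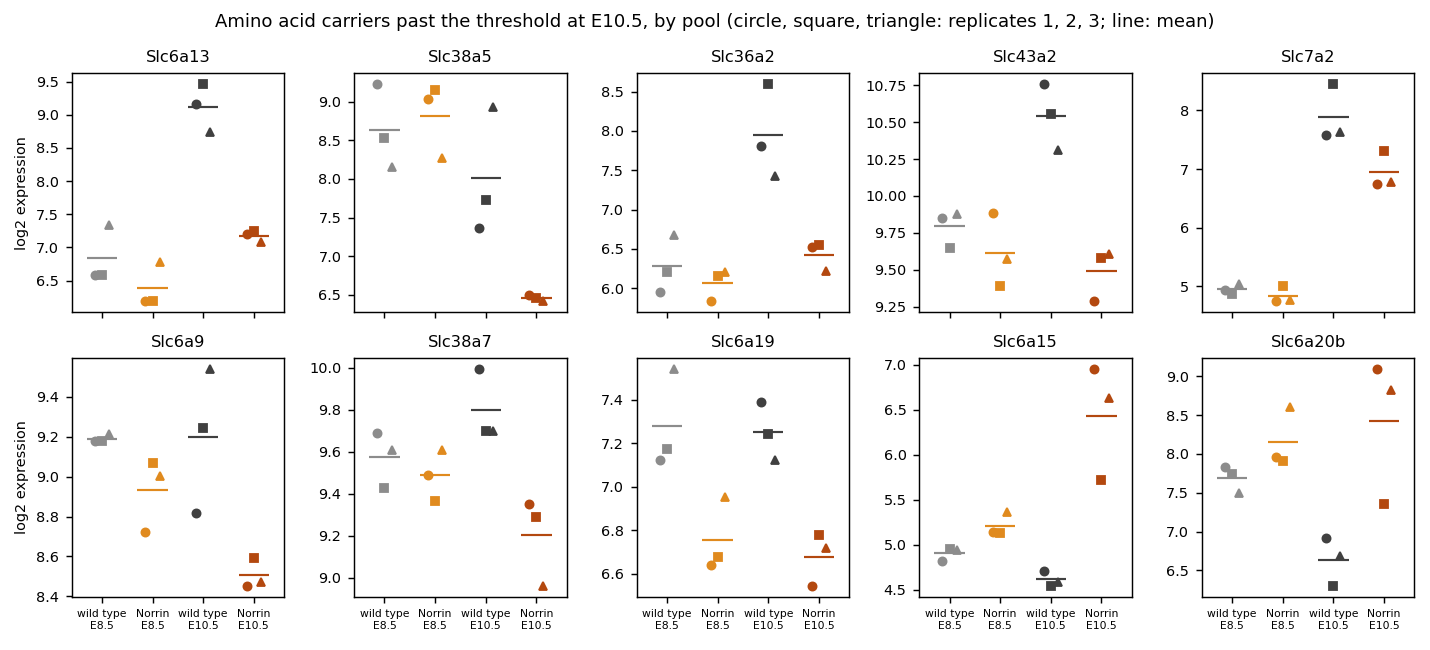
Log2 expression (vertical axis) of the 10 carriers past the threshold at E10.5, for each pool of the 4 groups. Circles, squares and triangles are replicates 1, 2 and 3 and lines are group means. In all 10 panels the Norrin pools at E10.5 lie apart from the wild type pools of that stage, with a mean for Slc6a13 of 9.12 in wild type and 7.17 in Norrin.

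Promoters of carriers that fell, rose or form a pair are shown so that the sequence before the start site can be read beside the changes. RefSeq promoter entries (build GRCm38.p6) were listed for 46 of the 63 genes, and the 250 bases before the listed start were searched on both strands. The motifs were the TCF/LEF core CTTTGA, at which beta-catenin partners bind, the site of GATA factors, AGATAA, the HNF1 core GTTAAT, that of C/EBP factors (TTNNGNAA) and the amino acid response element TGATGNAA. Capitals mark matches, and each sequence reads 5′ to 3′ on the strand of its gene. Slc6a13 lies at chr6:121300038-121300287 (+ strand), Slc38a5 at chrX:8271131-8271380 (+), Slc6a20b at chr9:123632539-123632788 (- strand), Slc3a1 at chr17:85028097-85028346 (+) and Slc7a9 at chr7:35448842-35449091 (+). The listed start of Slc7a9 lies 365 bases from the 5′ end of its gene, and the others lie at that end.
Slc6a13: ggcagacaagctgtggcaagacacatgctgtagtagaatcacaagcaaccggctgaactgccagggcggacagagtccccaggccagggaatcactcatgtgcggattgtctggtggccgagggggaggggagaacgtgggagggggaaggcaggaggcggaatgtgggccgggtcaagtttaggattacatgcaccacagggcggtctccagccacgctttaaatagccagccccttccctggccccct
Slc38a5: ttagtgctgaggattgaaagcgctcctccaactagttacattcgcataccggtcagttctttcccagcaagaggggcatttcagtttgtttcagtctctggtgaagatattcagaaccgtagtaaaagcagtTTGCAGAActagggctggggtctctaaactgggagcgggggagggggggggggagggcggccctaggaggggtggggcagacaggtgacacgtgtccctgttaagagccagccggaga
Slc6a20b: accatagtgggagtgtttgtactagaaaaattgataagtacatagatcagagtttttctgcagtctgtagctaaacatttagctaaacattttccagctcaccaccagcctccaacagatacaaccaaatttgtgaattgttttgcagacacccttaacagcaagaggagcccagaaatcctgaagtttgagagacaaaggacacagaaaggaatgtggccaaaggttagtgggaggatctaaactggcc
Slc3a1: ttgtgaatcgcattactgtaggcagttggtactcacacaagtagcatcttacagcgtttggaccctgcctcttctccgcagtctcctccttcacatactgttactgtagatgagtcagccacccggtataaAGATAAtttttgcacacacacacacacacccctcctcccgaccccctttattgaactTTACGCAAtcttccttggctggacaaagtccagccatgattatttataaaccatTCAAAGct
Slc7a9: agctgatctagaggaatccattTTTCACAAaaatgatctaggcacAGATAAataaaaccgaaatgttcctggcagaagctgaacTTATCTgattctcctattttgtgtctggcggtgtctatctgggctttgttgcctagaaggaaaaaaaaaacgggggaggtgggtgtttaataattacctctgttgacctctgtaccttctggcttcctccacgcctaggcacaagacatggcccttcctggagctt
Slc6a13 and Slc6a20b, the carriers with the largest fall and the second largest rise, held none of the 5 motifs in this window. Slc38a5 held 1 C/EBP match 118 bases before the start. Slc3a1 held a TCF/LEF match 8, a C/EBP match 62 and a GATA match 119 bases before it, and Slc7a9 held GATA matches 166 and 205 and a C/EBP match 228 bases before it. No marked matches overlapped. Over all 32851 listed promoters 13.8% held CTTTGA, 9.99% AGATAA, 6.43% GTTAAT, 36.8% TTNNGNAA and 3.45% TGATGNAA. Among the 46 carriers these were 9, 2, 4, 15 and 3 genes. A match describes letters and not a bound site.

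Heavy chains and their light chains were read side by side because they form a carrier together. Slc3a2 encodes 4F2hc, the heavy chain of LAT1, LAT2, both y+LAT carriers, Asc-1 and xCT. Its level at E10.5 was 12.30, 11.80 and 11.76 in wild type and 11.90, 12.06 and 11.72 in Norrin, with overlapping groups and an effect of -0.06 (SE 0.16, adjusted p = 0.959). Slc7a5 (LAT1) overlapped too, with an effect of -0.03. Slc7a8 (LAT2), an exchanger of neutral amino acids, was at 9.74, 9.40 and 9.38 in wild type and at 8.83, 8.73 and 8.84 in Norrin. Those groups were apart, and the effect of -0.71 missed the threshold (limma adjusted p = 0.0878, or 0.0062 with replicate number as a block). Slc7a7 (y+LAT1) had an effect of -0.28, Slc7a10 (Asc-1) 0.11 and Slc7a11 (xCT) 0.07, and the last 2 stayed under the median gene level.

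Slc7a6, the y+LAT2 light chain that exchanges arginine for glutamine and sodium, had nearly the same effect at both stages. It read 9.03, 9.06 and 8.38 in wild type and 9.93, 9.70 and 9.06 in Norrin at E8.5, and 7.83, 7.20 and 7.77 in wild type and 8.75, 8.12 and 8.40 in Norrin at E10.5. Each Norrin pool lay above the wild type pool of the same number. The effects were 0.74 at E8.5 (SE 0.27, limma adjusted p = 0.597, or 0.0145 with the block) and 0.83 at E10.5 (adjusted p = 0.134, or 0.00124 with the block). Its other probe set gave 0.70 and 0.84. Without the block neither effect passed.

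The cystine carrier of kidney and gut pairs the heavy chain Slc3a1 (rBAT) with the light chain Slc7a9 (b0,+AT), whose promoters are printed above. Slc7a9 stood at 12.18, 11.77 and 11.79 in wild type and at 11.70, 11.31 and 11.62 in Norrin at E10.5, and at 11.50, 11.43 and 11.79 against 10.98, 10.86 and 11.37 at E8.5. Norrin pools were lower at both stages without overlap. The effects were -0.37 at E10.5 (limma adjusted p = 0.370, or 0.0302 with the block) and -0.50 at E8.5 (adjusted p = 0.583, or 0.0433 with the block). Slc3a1 read 6.92, 7.19 and 6.81 in wild type and 6.58, 6.53 and 6.41 in Norrin at E10.5, an effect of -0.46 (adjusted p = 0.0850, or 0.0173 with the block). At E8.5 its groups overlapped, with an effect of -0.16. Slc3a1 lay under the median gene level in every group.

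**Figure D3:**
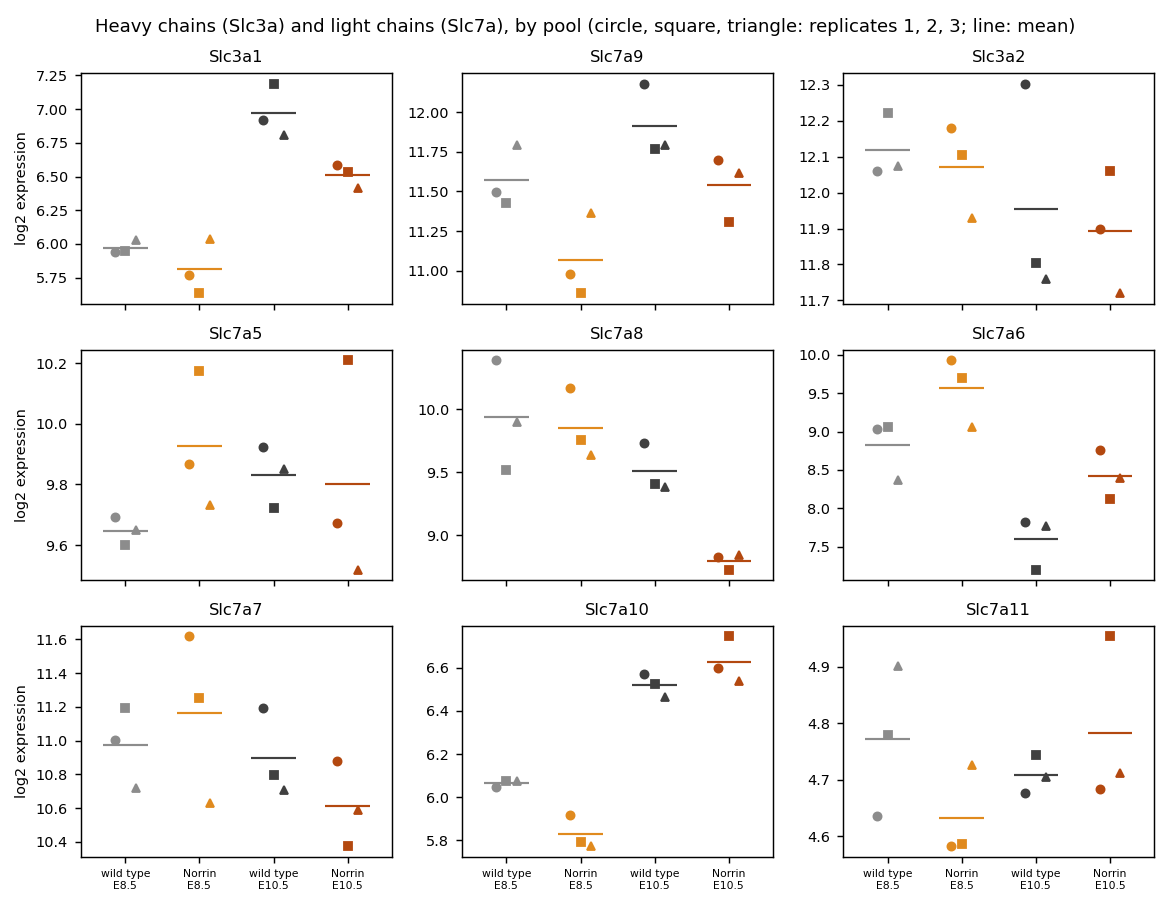
Log2 expression (vertical axis, a scale of its own in each panel) of the 2 heavy chains and 7 light chains in each pool of the 4 groups. Circles, squares and triangles are replicates 1, 2 and 3 and lines are group means. Slc7a9 is lower in the Norrin pools at both stages, and Slc3a2 overlaps at both.

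Replicate number carried information within a stage: pools of the same number deviated together from their group means, with correlations over genes of 0.726, 0.318 and 0.730 at E8.5 and 0.506, 0.209 and 0.219 at E10.5. When each stage was blocked on that number, 19 of the 63 genes passed at E10.5, against 13.2% of all genes, and all 10 above were among them. The count was 14 lower, against 6.8%, and 5 higher, against 6.39%. Beyond the genes already given, the block added Slc1a1, the glutamate carrier EAAT3 (-0.60, adjusted p = 0.00781 with the block; -0.83 and -1.39 by its other probe sets), Slc36a1, the lysosomal proton-coupled carrier PAT1 (-0.41, 0.0189), and Slc43a3, a purine nucleobase carrier (-0.44, 0.0209). It also added Slc1a4, the neutral exchanger ASCT1 (0.47, 0.0170), and Slc38a1, a sodium-coupled glutamine carrier (0.90, 0.0124). With array weights 20 of the 63 passed, against 12.7% of all genes.

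System A carriers and the arginine carrier Slc7a1 were highest in a single Norrin pool. Slc38a1 read 9.58, 9.57 and 9.34 in wild type and 10.21, 11.04 and 9.93 in Norrin at E10.5. Slc38a4 read 9.76, 9.27 and 9.996 in wild type and 10.12, 11.32 and 9.92 in Norrin, and Slc7a1, which encodes CAT1, 8.91, 8.66 and 9.51 in wild type and 9.52, 10.43 and 9.73 in Norrin. In each gene the second Norrin pool stood out, and the same pool was the highest for Slc38a2 (11.80) and Slc7a5 (10.21). None passed: the effects were 0.90 for Slc38a1 (limma adjusted p = 0.0697), 0.78 for Slc38a4 (0.505) and 0.86 for Slc7a1 (0.166). Without the second Norrin pools of both stages, a fit chosen after seeing the data, they were 0.58, 0.35 and 0.60, while those of Slc6a15 and Slc6a20b were 2.18 and 2.32.

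Markers of other cells also differed between pools, and in whole yolk sac fewer cells of a type and less RNA per cell cannot be told apart. Of all genes, 4.07% passed at E10.5 and 13.2% with the block, and at E8.5 0.077% and 1.41%. The mean log2 level of 8 trophoblast genes measured of 12 listed was 9.34 in Norrin E10.5 replicate 2 and 6.67 to 7.31 in the other 5 pools of that stage. At E8.5 it was 7.48 in Norrin replicate 2 and 6.36 to 6.85 in the others. The mean of 11 erythroid genes was 10.72, 11.34 and 11.85 in the wild type E10.5 pools and 9.97 to 10.09 in the Norrin pools, and 6 of the 11 fell (10 with the block). Slc38a5 and Slc6a9 followed the same order across the wild type pools, as did Slc1a2, Slc6a12 and Slc6a19os, all under the median gene level. In the wild type E8.5 pools the erythroid mean was 11.5, 11.1 and 10.9. Slc38a5 kept that order there (9.23, 8.53 and 8.16), and Slc6a9 did not (9.18, 9.18 and 9.22). At E10.5 the mean of 13 visceral endoderm genes was 12.85 to 13.17 in wild type and 12.41 to 12.46 in Norrin. Of the 13, 3 fell (7 with the block). At E8.5 the mean was 12.57 to 12.65 in wild type and 12.19 to 12.44 in Norrin, and 1 fell (3 with the block). Slc6a13, Slc36a2 and Slc7a2 were highest in wild type E10.5 replicate 2, the pool of that stage with the top visceral endoderm and macrophage means, whereas Slc43a2, Slc38a7 and Slc6a19 were highest in replicate 1. A shared order or peak over 3 pools arises readily. Its share over all genes was not counted, so no link to a cell type is read from it. The mean of 9 macrophage genes was 8.28 to 8.77 in wild type and 7.64 to 8.55 in Norrin at E10.5, where 1 fell, and 6.92 to 7.34 against 6.66 to 6.91 at E8.5.

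Other lists stood higher in Norrin at E10.5. Of all genes, 4.07% passed there, 14% had an unadjusted p under 0.05 and 13.2% passed with the block. For 12 parietal endoderm genes the mean was 9.97 to 10.15 in wild type and 10.74 to 10.87 in Norrin, and 4 rose (8 with the block). For 9 mesenchyme genes it was 10.73 to 10.85 and 11.10 to 11.28, and 2 rose (4 with the block). For 9 decidua genes it was 8.63 to 8.73 and 8.94 to 9.19, and 1 rose (4 higher and 2 lower with the block). For 8 neural genes of the embryo it was 6.07 to 6.24 and 6.33 to 6.34, with 0 past the threshold (1 at an unadjusted p under 0.05 and 1 with the block). These 4 lists did not overlap between the groups, while the 10 endothelial genes did, with 0 past the threshold (2 at an unadjusted p under 0.05 and 3 with the block). The part of these cells in the carrier changes was not tested.

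**Figure D4:**
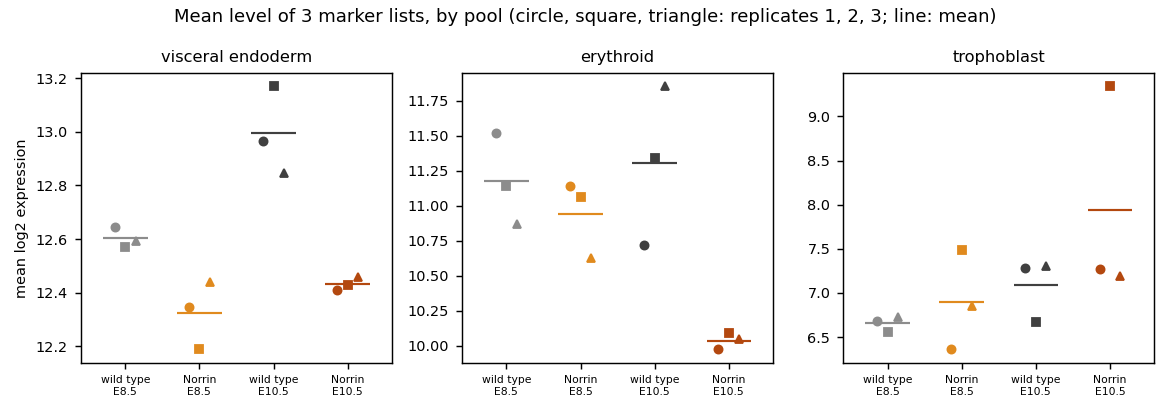
Mean log2 expression (vertical axis) of the visceral endoderm, erythroid and trophoblast marker lists in each pool of the 4 groups. Circles, squares and triangles are replicates 1, 2 and 3 and lines are group means. The Norrin pools at E10.5 are below all wild type pools of that stage for the first 2 lists, and trophoblast markers reach 9.34 in Norrin replicate 2.

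At E8.5, 0 of the 63 genes passed by limma, against 0.077% of all genes, and 7 had an unadjusted p under 0.05, against 7.22%. With the block within the stage 2 passed, Slc7a6 and Slc7a9, against 1.41% of all genes, and with array weights 22, against 28.3%. Of the 7 genes with an unadjusted p under 0.05, Slc7a6 was higher, and the lower ones were Slc6a18 (-0.84), Slc6a19 (-0.52), Slc7a9 (-0.50), Slc7a12 (-0.43), Slc6a6 (-0.31) and Slc7a10 (-0.24). Slc6a18, Slc6a19, Slc7a12 and Slc7a10 lay under the median gene level in every group. The other probe sets of Slc6a6 gave -0.015, -0.035 and -0.14. Slc6a18 and Slc6a19 are brush-border carriers of neutral amino acids, and Slc6a6 carries taurine. Slc6a19 read 7.12, 7.17 and 7.54 in wild type and 6.64, 6.68 and 6.95 in Norrin, without overlap, and its adjusted p was 0.384 (0.0504 with the block). Of the 63 effects 48 were below 0, against 53.9% of all genes, and the median was -0.12 against -0.02. The 35 carriers that reached the median gene level had a median of -0.081 (quartiles -0.20 and 0.14) and the 28 dimmer ones -0.15, against 0.062 and -0.090 over all genes of those levels. Among the 35, the median difference from the wild type mean was 0.057 in Norrin replicate 1, above the wild type pools (-0.049 to 0.031), and -0.060 and -0.17 in Norrin replicates 2 and 3. The Norrin pools lay apart from wild type in 10 genes, 7 lower and 3 higher, against 11.9% of all genes. Other effects that did not pass were those of Slc38a6 (-0.51), Slc6a20b (0.46), Slc38a4 (0.41) and Slc7a6os (0.32).

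Whether the Norrin effect differed between stages was tested as an interaction. By limma 0 of 63 passed, against 0.0934% of all genes, with 15 at an unadjusted p under 0.05, against 7.01%. With array weights 22 passed, against 15%. With the block within each stage 4 passed, against 2.07%. They were Slc6a13 (difference of effects -1.50, adjusted p = 0.0045 with the block and 0.155 without), Slc36a2 (-1.31, 0.0278 and 0.308), Slc7a2 (-0.83, 0.0326 and 0.531) and Slc6a15 (1.51, 0.0236 and 0.150). Without the block, Slc6a13 passed when wild type E8.5 replicate 3 was left out and Slc6a15 when Norrin E10.5 replicate 2 was.

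Between the stages, wild type carriers differed most in Slc7a2 when each gene was read from its brightest probe set. Each stage went through RMA in a run of its own, as read from identical values (26 to 93 in each pair of arrays within a stage, 0 in each of 36 pairs across), so stage and run cannot be told apart. The median of all genes was 0.14 higher at E10.5 as deposited, and -0.14 and -0.06 with arrays centred on their medians or quantile-normalized together. In wild type 17 of 63 passed, against 32.5% of all genes, with 13 higher (25.4% of all genes) and 4 lower (7.12%). The split was 7 and 14 with centred arrays (13.5% and 25.4% of all genes) and 8 and 15 after joint quantile normalization (16% and 20.1%). With array weights 31 passed, against 59.3%. Under all 3 scalings 7 were higher and 4 lower, against 13.2% and 7.05% of all genes.

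Slc7a2 read 4.94, 4.87 and 5.04 in the wild type pools at E8.5 and 7.59, 8.45 and 7.62 at E10.5, a rise of 2.93 as deposited and 2.80 above the median gene (limma adjusted p = 5.0e-06). Its 3 other probe sets gave 0.86, 0.15 and 0.16, and so its size and rank hold for 1 probe set. Slc6a13 rose by 2.28, Slc36a2 by 1.67, Slc1a1 by 1.03 (1.72 and 2.97 by its other probe sets), Slc3a1 by 1.00 and Slc43a2 by 0.75, and the seventh was Slc6a5, a glycine carrier of neurons, with 0.72. Slc7a6 fell by 1.23, Slc6a20b by 1.06, Slc1a7 by 0.59 and Slc6a6 by 0.43. By the probe sets used, Slc1a1, Slc3a1, Slc6a5 and Slc1a7 lay under the median gene level in every group. The fall of Slc6a20b was lost when any of the 6 wild type arrays or Norrin E8.5 replicate 1 or 2 was left out. That of Slc1a7 was lost without wild type E8.5 replicate 2 or 3 or E10.5 replicate 3, and that of Slc6a6 without replicate 2 or 3 of either stage in wild type. The other probe set of Slc6a20b gave -0.34, and those of Slc6a6 turned the direction, with 0.19, 0.011 and 0.12. The mean of all probe sets did not pass for either gene.

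In Norrin yolk sacs 23 of 63 passed between stages, against 37.9% of all genes, with 18 higher (28.2% of all genes) and 5 lower (9.69%). Under all 3 scalings 9 were higher and 5 lower, against 13.4% and 9.53%. The split was 12 and 14 with centred arrays (14.8% and 27.5% of all genes) and 11 and 11 after joint quantile normalization (16.9% and 20.9%). With array weights 39 passed, against 64%. Slc38a5 fell by 2.37 (adjusted p = 0.000479), from 9.03, 9.15 and 8.28 to 6.50, 6.45 and 6.41, and its wild type difference was -0.63 (adjusted p = 0.221). The contrasts share arrays with those above, and so their values are set side by side only. For Slc7a2 the stage difference was 2.11 in Norrin and 2.93 in wild type, for Slc6a13 0.79 and 2.28, for Slc36a2 0.36 and 1.67, and for Slc43a2 -0.13 and 0.75. For Slc6a15 it was 1.22 in Norrin and -0.29 in wild type.

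**Figure D5:**
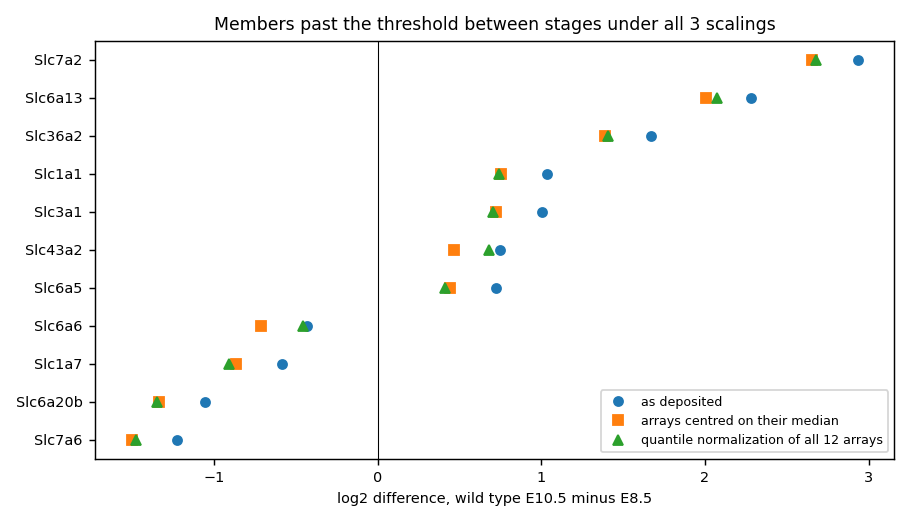
Stage difference in wild type (horizontal axis, log2 of E10.5 minus E8.5) of the 11 carriers past the threshold under all 3 scalings. Circles are the deposited values, squares arrays centred on their median and triangles all 12 arrays quantile-normalized together. The points of a gene stay on the same side of 0, with Slc7a2 at 2.93 as deposited.

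Genes that work beside the carriers were counted from lists of their own, to be read beside all genes: 4.07% passed at E10.5, 14% had an unadjusted p under 0.05 and 13.2% passed with the block. Of 3 genes measured from a list of proteins that act on membrane carriers, 1 fell at E10.5. This was Cltrn, collectrin, the partner that brings Slc6a19 to the membrane in kidney. It read 8.42, 6.95 and 8.08 in wild type and 5.51, 5.45 and 5.78 in Norrin (log2 -2.23, SE 0.40, limma adjusted p = 0.0079). The groups were apart, as they were for Slc6a19. The others of that list, Nedd4l (-0.65, limma adjusted p = 0.0727) and Bsg (0.46, 0.364), did not pass, but did with the block (0.00753 and 0.0316). Of 27 genes of amino acid sensing by mTORC1, 1 rose, Sesn3 of the sestrins (9.47, 9.72 and 8.85 to 12.07, 11.45 and 11.50; adjusted p = 0.00592), and the median was -0.05. Of 21 genes of the ATF4 amino acid response, 1 rose, the lipoprotein receptor Vldlr (log2 2.21, adjusted p = 0.000484), 6 had an unadjusted p under 0.05, and the median was 0.07. With the block 2 were higher, Vldlr and Chac1 (0.46), and 3 lower, Phgdh (-0.64), Psph (-0.55) and Cebpg (-0.40). By limma 0 of 18 other amino acid and peptide carriers passed (4 at an unadjusted p under 0.05 and 3 with the block), and 0 of 18 enzymes of glutamine, arginine, branched-chain and glycine metabolism (5 at an unadjusted p under 0.05 and 7 with the block). At E8.5 limma called 0 genes in each of the 5 lists, with 0 to 3 at an unadjusted p under 0.05 and 0 with the block.

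The calls at E10.5 rest on few arrays for 6 of the 10 genes. Slc6a13, Slc36a2, Slc43a2 and Slc6a15 passed in all 13 fits that left out 1 or 2 arrays. Slc7a2 passed in 10, and was lost without wild type E10.5 replicate 2 (-0.66) or Norrin E10.5 replicate 1 (-0.84) or 3 (-0.86). Slc6a20b passed in 9, and was lost without wild type E10.5 replicate 2 (1.62) or 3 (1.81) or Norrin E10.5 replicate 1 (1.45) or 3 (1.59). Slc38a5 and Slc38a7 passed in 5, Slc6a9 in 4 and Slc6a19 in 2. Without wild type E10.5 replicate 3 the effect of Slc38a5 was -1.09 and that of Slc6a9 -0.52. These 4 were each lost without any 1 of wild type E10.5 replicates 2 and 3, the Norrin E10.5 pools and Norrin E8.5 replicate 2, and Slc38a7 and Slc6a19 also without wild type E10.5 replicate 1. Further arrays whose loss ended a call were wild type E8.5 replicate 2 for Slc38a5, Slc6a9 and Slc6a19, wild type E8.5 replicate 1 for Slc6a9 and Slc6a19, and Norrin E8.5 replicate 1 for Slc6a19. Other settings that ended a call were the 6 arrays of E10.5 alone (Slc7a2, Slc6a20b, Slc38a5, Slc38a7 and Slc6a9), a block across both stages (Slc38a5 and Slc6a19), the mean of all probe sets (Slc7a2 and Slc6a19), joint quantile normalization (Slc6a9) and an intensity trend (Slc38a7).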

How the data were processed

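Whole yolk sac RNA was measured on 12 Affymetrix arrays. The authors deposited log2 values, and the submitters' processing notes name RMA as their source, without a version. RMA subtracts background, quantile-normalizes arrays and summarises probes, so values near the floor are compressed, and no read depth exists. Of 45101 probe sets, 34945 had 1 gene, 932 several and 9160 none in the platform annotation table, and the 64 control probe sets were left out. Each gene took its probe set with the highest mean over the 12 arrays, which gave 18193 genes. Positions and promoters are from RefSeq (GRCm38.p6), not probe positions.

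limma 3.58.1 in R 4.3.3 fitted the 4 group means to all 12 arrays (degrees of freedom 8 residual, 4.17 prior), two-sided, with Benjamini-Hochberg adjustment over all genes and a threshold of 0.05. The median SE of a Norrin effect was 0.16. The test was checked on simulated data with noise drawn independently for each gene and array. That check holds no deviations shared between pools, such as those described next. Replicates of a group are separate pools, and arrays within a group correlated at 0.975 to 0.991. Same-numbered pools of a stage deviated together, each correlation being over 0.1, but so were some pairs of unlike number. Values with replicate number as a block are therefore given where they change a call. The labels do not say what the number marks.

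The carriers, the lists and the tests were chosen with earlier results of these data known. Genes named were those past the threshold in a Norrin contrast or the interaction, up to 4 others per direction, up to 6 per direction between stages in wild type, the Slc3a chains with their Slc7a partners, and Slc38a1 to Slc38a5. Genes that passed only with the block, at an unadjusted p or between stages in Norrin were named after their values were seen. Alternatives were the block, other scalings, array weights, a filter on dim genes, the mean of a gene's probe sets, an intensity trend, the arrays of a stage alone and leaving out each array.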

Additional observations from a re-analysis of the deposited data

How the results depend on the processing

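Counts of carriers past the threshold moved with the fit. A replicate block in each stage, which uses the pairing by number, raised the count from 0 to 2 at E8.5, from 10 to 19 at E10.5 and from 0 to 4 for the interaction. A block across both stages left these 3 counts at 0, 10 and 0. At E10.5 it lost Slc38a5 and Slc6a19, so other carriers took their place among the 10. With array weights the counts were 22 at E8.5, 20 at E10.5, 22 for the interaction, 31 between stages in wild type (17 without weights) and 39 between stages in Norrin (23 without), and over all genes 5147 passed at E8.5 instead of 14 (2316 at E10.5 instead of 741). For the contrasts in that order, 28.3%, 12.7%, 15%, 59.3% and 64% of all genes passed with weights. The 6 arrays of E10.5 alone gave 6, against 4.2% of all genes. With genes under the median level left out, fewer genes were tested and the stage counts were 10 in wild type and 14 in Norrin. Of the 10059 genes tested, 25.6% and 32.6% passed. Leaving out each array gave 0 to 0 at E8.5, 4 to 10 at E10.5, 0 to 1 for the interaction, 12 to 17 between stages in wild type and 17 to 27 in Norrin. At E10.5 the count was 4 without wild type replicate 2 or Norrin replicate 1, 5 without wild type or Norrin replicate 3, and 6 without Norrin E8.5 replicate 2. Without the second Norrin pools of both stages, a setting chosen after seeing the data, it was 7 at E10.5, 1 for the interaction and 15 between stages in Norrin. One direction reversed: the E8.5 effect of Slc38a4 was 0.41, and with 1 array left out it ran from -0.068 (without wild type E8.5 replicate 2) to 0.70. Where not stated, the cause was not tested. The number of arrays limits the precision.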
